A study of Mus musculus with 6 samples.

Results

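In all, 10 genes of osteoclast differentiation and bone resorption are described here in bone RNA of mice after phlebotomy (removal of blood) and of control mice. The genes are Nfatc1, Oscar, Calcr, Itgb3, Dcstamp, Ocstamp, Atp6v0d2, Acp5, Ctsk and Mmp9. They were chosen by name from the 55421 genes of the count table, and all 10 members were among the 18838 genes that passed a filter on low counts and were tested. The labels give all mice as wild-type C57BL/6 animals aged 12 weeks, and RNA was taken from an osteocyte-rich fraction of the femur, giving 3 phlebotomy libraries and 3 control libraries; osteocytes are cells that live inside the bone matrix. The amount of blood removed, the time from bleeding to sampling and the number of mice behind a library are not given in the labels used here. Libraries are called phlebotomy 1, 2 and 4 and control 1, 2 and 4 after the numbers of the deposited columns, and the tie between column and group rests on the column initials.

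Osteoclasts are large cells with many nuclei that dissolve bone. They arise when macrophage precursors meet the cytokine RANKL, which osteocytes and other bone cells make, together with the growth factor M-CSF. RANKL signalling switches on the transcription factor NFATc1, which in turn drives genes for cell fusion, attachment to bone, acid secretion and matrix digestion. Acid dissolves the mineral under the cell, and the protease cathepsin K then cuts the exposed collagen.

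Levels are given in CPM, read counts scaled to library size, as deposited. Total gene counts ran from 11219243 to 19015588 a library, and a level of 3 counts is then 0.158 to 0.267 CPM. Phlebotomy 2 stood apart from the other phlebotomy libraries on the first principal component (41.8% of the variance). It lay at -7.80, against 54.9 and 40.2 for phlebotomy 1 and 4, while the controls lay from -51.4 to -16.6. Mean chi-square per gene, a measure of how far the counts of a library pair differ, gave another order. It was 42.2 for phlebotomy 2 and 4, 48.3 for phlebotomy 1 and 4 and 74.2 for phlebotomy 1 and 2. Phlebotomy 2 also held more counts for transgene or vector sequences than any other library, at 0.0285% against 0.00278% to 0.00361%, and 2 such rows had counts in it alone. Whether this library came from a wild-type mouse, as labelled, was not tested. Calls that change without it are given beside the results. Dmp1, an osteocyte matrix protein, was present at 10908 to 22651 CPM in phlebotomy libraries and 19363 to 44098 CPM in control libraries, and no marker of osteocytes or of the other cell types described had 0 counts in a library.

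Over all 6 libraries none of the 10 genes passed the test, which was edgeR's quasi-likelihood test with Benjamini-Hochberg adjustment over all tested genes at a threshold of 0.05. The background was low as well, with 0.0159% of genes called higher and 0.0% called lower. Nfatc1 and Itgb3 were the 2 members below an unadjusted p of 0.05, both with lower values after phlebotomy, where 9.42% of all genes were lower at that level. None of the members was higher at an unadjusted p under 0.05, against 7.01% of all genes. DESeq2 called Nfatc1 lower and no member higher, where it called 1.09% of all genes lower, 0.414% higher and 1.51% in either direction. These are shares of the 18826 genes with a p in DESeq2, which gave no adjusted p to 6584 of the 18838 genes. It put the same 2 members lower at an unadjusted p under 0.05, against 8.68% of all genes lower and 6.4% higher. The limma-voom test called no member and no other gene, with 2 members and 2987 of all 18838 genes at an unadjusted p under 0.05.

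The call changed with a single library. Without phlebotomy 2, Ctsk and Atp6v0d2 rose and Nfatc1 and Itgb3 fell in edgeR, so that 4 of 10 members passed, where 1.75% of all genes were called higher, 2.99% lower and 4.74% in either direction. At an unadjusted p under 0.05, 4 members were higher and 2 lower in that fit, against 12.1% and 14.5% of all genes. The log2 fold changes were then 1.20 ± 0.25 for Ctsk, 1.07 ± 0.22 for Atp6v0d2, -1.03 ± 0.27 for Nfatc1 and -0.87 ± 0.23 for Itgb3 (SE, edgeR adjusted p 0.0283, 0.0283, 0.0459 and 0.0495). With any other library left out no member passed in edgeR. The median log2 fold change of the 10 genes was 0.29 over all libraries, against -0.0028 for all genes tested, with 8 members above 0 and 2 below. It was 0.55 without phlebotomy 2 and turned to -0.12 without phlebotomy 4. RNA was measured in a bone fraction that holds several cell types. Fewer osteoclasts, less RNA per osteoclast and less RNA from other cells therefore cannot be told apart, and the same holds for more of each.

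**Figure D1:**
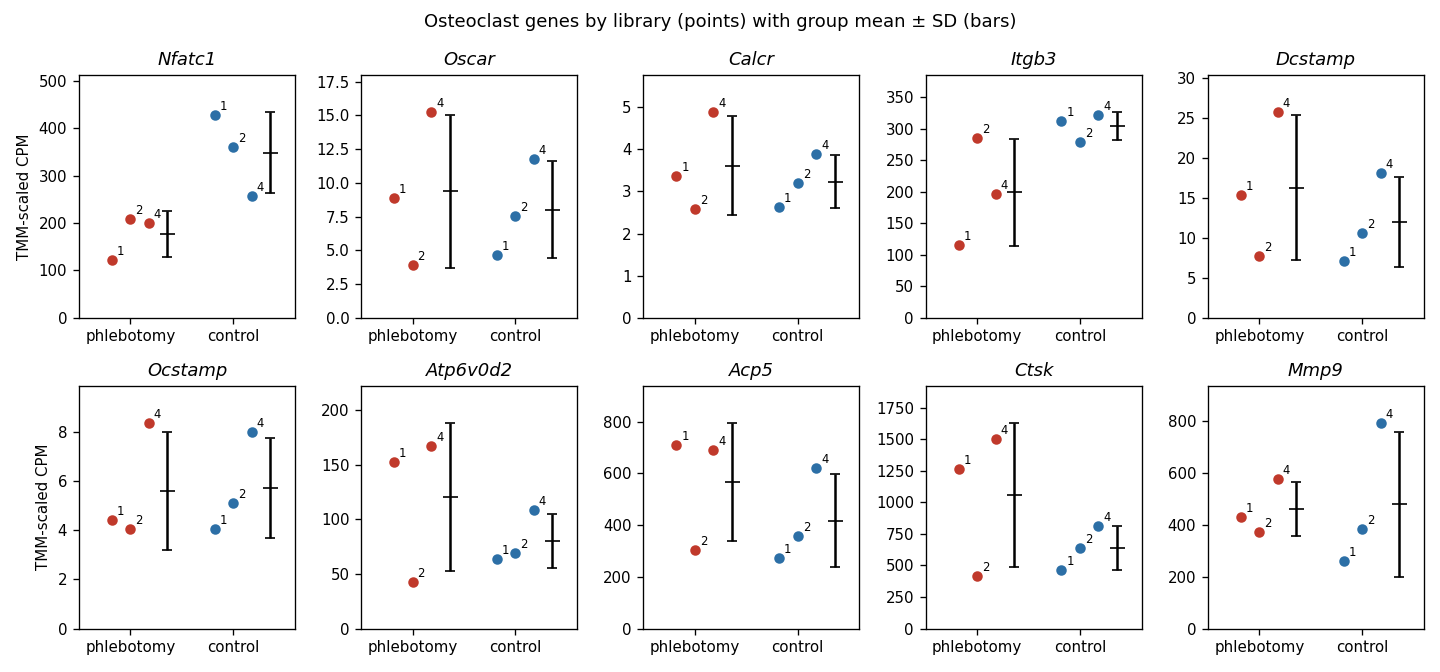
Level of each osteoclast gene in TMM-scaled CPM (vertical axis, starting at 0) in 3 phlebotomy and 3 control libraries; points are libraries with their column number, and bars are the mean ± SD of 3. Nfatc1 is lower in every phlebotomy library than in every control, and for Ctsk, Acp5 and Atp6v0d2 phlebotomy 1 and 4 lie above all controls and phlebotomy 2 does not.

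Nfatc1 encodes the transcription factor that RANKL induces as the main switch of osteoclast formation. Its level was 121, 209 and 199 CPM in phlebotomy 1, 2 and 4, against 429, 360 and 258 CPM in control 1, 2 and 4. It was the one member whose groups did not overlap, with phlebotomy below control, as for 14.5% of all genes tested. Of all genes, 7.22% had all phlebotomy libraries above control and 21.7% did not overlap in either direction. The mean was 177 ± 48.4 CPM after phlebotomy and 349 ± 86.0 CPM in control (SD, n = 3 each). This gave Nfatc1 a log2 fold change of -0.90 ± 0.23 (SE, unadjusted p 0.00142, edgeR adjusted p 0.149). DESeq2 gave an adjusted p of 0.0234 for Nfatc1, and the adjusted p ran from 0.000868 to 0.613 over 19 alternatives. With any library left out the log2 fold change stayed between -1.11 and -0.67.

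Itgb3 (chr11:104608000-104670476, plus strand), the beta subunit of the integrin through which osteoclasts hold to bone, was at 116, 285 and 196 CPM in phlebotomy 1, 2 and 4, against 312, 279 and 322 CPM in control 1, 2 and 4. Phlebotomy 2 lay inside the control range and the other phlebotomy libraries below it. Control libraries differed 1.15-fold from lowest to highest and phlebotomy libraries 2.46-fold. The log2 fold change of Itgb3 was -0.54 ± 0.24 (SE, edgeR unadjusted p 0.0412, adjusted p 0.287), and it ran from -0.87 without phlebotomy 2 to -0.25 without phlebotomy 1. Platelets and their precursors carry the same subunit. Itgav, the alpha partner of Itgb3 in osteoclasts, was at 137, 189 and 203 CPM in phlebotomy 1, 2 and 4 and 330, 258 and 219 CPM in control 1, 2 and 4, so its groups did not overlap (log2 fold change -0.52, edgeR adjusted p 0.237). Phlebotomy lay below control without overlap in 14.5% of all genes tested.

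Both remaining surface genes are receptors. Oscar (chr7:3609813-3616157, minus strand), a receptor for collagen that adds a costimulatory signal in osteoclast precursors, was at 8.91, 3.92 and 15.3 CPM in phlebotomy 1, 2 and 4 and 4.65, 7.56 and 11.8 CPM in control 1, 2 and 4. Calcr (chr6:3685680-3764714, minus strand), the receptor for calcitonin, the hormone that stops resorption, was at 3.37, 2.59 and 4.89 CPM in phlebotomy 1, 2 and 4 and 2.63, 3.19 and 3.88 CPM in control 1, 2 and 4. For both genes phlebotomy 4 was the highest of the 6 libraries and phlebotomy 2 the lowest. Oscar had a log2 fold change of 0.33 ± 0.49 and Calcr of 0.25 ± 0.32 (SE, edgeR adjusted p 0.763 and 0.714). Both turned negative without phlebotomy 4, at -0.25 for Oscar and -0.06 for Calcr. Calcr rested on 26 to 83 counts in a library and Oscar on 46 to 259.

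The genes of cell fusion were low. Dcstamp (chr15:39745930-39760938, plus strand), a membrane protein needed for precursors to fuse, was at 15.3, 7.77 and 25.7 CPM in phlebotomy 1, 2 and 4 and 7.07, 10.6 and 18.1 CPM in control 1, 2 and 4. Ocstamp (chr2:165393760-165400405, minus strand), a related fusion protein, was at 4.40, 4.05 and 8.37 CPM in phlebotomy 1, 2 and 4 and 4.04, 5.10 and 7.97 CPM in control 1, 2 and 4. In both genes the groups overlapped, and the library numbered 4 was the highest of its group. The log2 fold change was 0.55 ± 0.48 for Dcstamp and 0.07 ± 0.33 for Ocstamp (SE, edgeR adjusted p 0.594 and 0.936). With a library left out, Dcstamp ran from 0.02 (without phlebotomy 4) to 0.93 (without control 4), and Ocstamp changed sign, between -0.38 and 0.35.

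Atp6v0d2 (chr4:19876841-19922605, minus strand) encodes a subunit of the proton pump that acidifies the space under the osteoclast, and it also takes part in fusion. Its level was 153, 43.0 and 167 CPM in phlebotomy 1, 2 and 4 and 63.3, 69.6 and 109 CPM in control 1, 2 and 4. Phlebotomy 1 and 4 thus lay above all controls and phlebotomy 2 below all of them, a 3.89-fold range within the phlebotomy group against 1.72-fold within the control group. All libraries together gave Atp6v0d2 a log2 fold change of 0.70 ± 0.57 (SE, edgeR adjusted p 0.580). Its size depended on phlebotomy 2 and 4, with 1.07 without the first of these and 0.37 without the second.

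The resorption enzymes were the most abundant members. Ctsk (chr3:95499256-95509362, plus strand), cathepsin K, the main collagen-digesting protease of osteoclasts, was at 1265, 413 and 1498 CPM in phlebotomy 1, 2 and 4 and 462, 638 and 810 CPM in control 1, 2 and 4. Acp5 (chr9:22126727-22135711, minus strand), the tartrate-resistant acid phosphatase (TRAP) by which osteoclasts are stained, was at 709, 303 and 691 CPM in phlebotomy 1, 2 and 4 and 275, 357 and 620 CPM in control 1, 2 and 4. Ctsk was lowest of all in phlebotomy 2, whereas Acp5 was lowest in control 1, and in both genes phlebotomy 1 and 4 exceeded every control. The log2 fold change was 0.85 ± 0.47 for Ctsk and 0.55 ± 0.39 for Acp5 (SE, edgeR adjusted p 0.405 and 0.502). Acp5 did not pass without phlebotomy 2 either, at 0.83 ± 0.28 (SE, edgeR adjusted p 0.0918). The log2 fold change of Ctsk was 0.48 without phlebotomy 4, and that of Acp5 was 0.30 without control 1 and 0.91 without control 4.

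Mmp9 (chr2:164940780-164955850, plus strand), a gelatinase that osteoclasts use to migrate and that neutrophils store in granules, was at 431, 373 and 576 CPM in phlebotomy 1, 2 and 4 and 259, 382 and 793 CPM in control 1, 2 and 4. The control libraries spanned the whole range of the phlebotomy libraries. Mmp9 averaged 460 ± 104 CPM after phlebotomy and 478 ± 280 CPM in control (SD, n = 3 each). Its log2 fold change was 0.04 ± 0.37 (SE, edgeR adjusted p 0.966), and it ran from -0.27 without control 1 to 0.58 without control 4. The deposited CPM and the test use different scalings, and the deposited one shifts phlebotomy against control by -0.0863 on the log2 scale. Mean CPM and fitted fold change differ in sign for Mmp9 and Ocstamp.

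**Figure D2:**
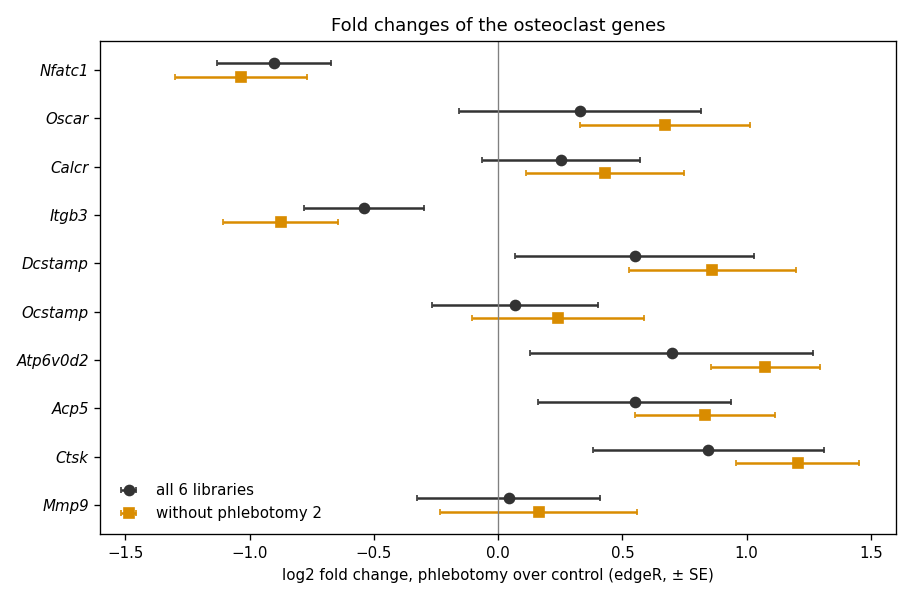
Fold change of each osteoclast gene on a log2 scale (horizontal axis, phlebotomy over control, edgeR) with its SE, over all 6 libraries (circles) and without phlebotomy 2 (squares). Leaving phlebotomy 2 out moved all 10 values away from 0, to 1.20 for Ctsk and -1.03 for Nfatc1 at the ends.

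Levels in CPM were compared between genes per kilobase of exon. In phlebotomy libraries Ctsk came first with 700 ± 378 CPM per kilobase, followed by Acp5 with 280 ± 113 and Mmp9 with 130.0 ± 29.5 (SD, n = 3). Atp6v0d2 (44.5 ± 25.0), Itgb3 (33.7 ± 14.3) and Nfatc1 (23.6 ± 6.47) formed the middle, and Dcstamp (6.11 ± 3.39), Oscar (5.07 ± 3.08), Ocstamp (1.53 ± 0.656) and Calcr (0.924 ± 0.299) the low end. Library ranges overlapped between neighbours in this order, except from Mmp9 to Atp6v0d2 and from Nfatc1 to Dcstamp, where they were apart. In control libraries Ctsk also came first with 421 ± 115 CPM per kilobase and Calcr last with 0.827 ± 0.161. There Itgb3 (51.6 ± 3.80) and Nfatc1 (46.7 ± 11.5) stood before Atp6v0d2 (29.7 ± 9.08), whereas Atp6v0d2 stood before both after phlebotomy, with ranges of Atp6v0d2 and Nfatc1 that overlapped in either group. Taking the longest transcript in place of all exons exchanged 2 ranks in each group, those of Itgb3 and Nfatc1.

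Of the 10 genes 8 varied together from library to library, and Nfatc1 and Itgb3 did not vary with them. Over the 6 libraries, on log2(CPM + 0.5), the 28 pairs among Oscar, Calcr, Dcstamp, Ocstamp, Atp6v0d2, Acp5, Ctsk and Mmp9 had Pearson's r from 0.59 (Ctsk and Mmp9) to 0.98 (Calcr and Dcstamp). Nfatc1 and Itgb3 had an r of 0.84 with each other. Of their 16 pairs with the other members 15 were negative, down to -0.73 for Ctsk and Itgb3. These values are descriptions over 6 libraries that share the grouping, so the fold changes enter them. All 8 of the first set increased in the order control 1, 2 and 4. In the phlebotomy group 6 of the 10 genes had in phlebotomy 4 the highest value of all libraries.

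**Figure D3:**
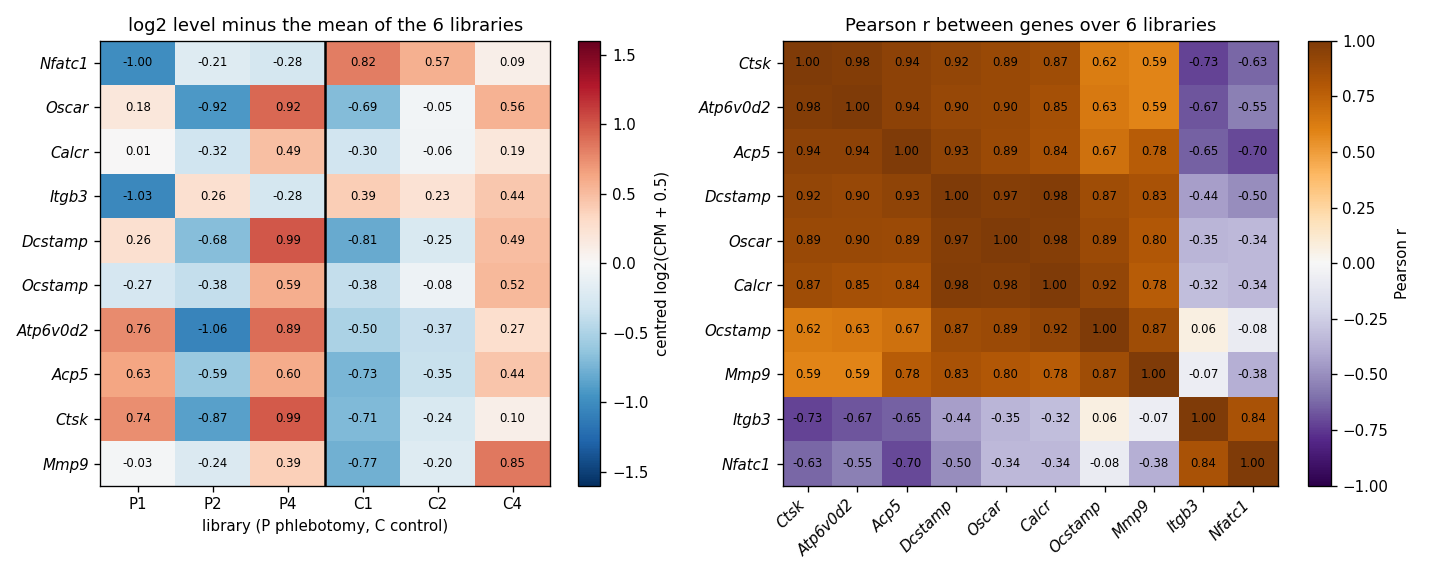
Left, log2(CPM + 0.5) of each osteoclast gene in each library minus the mean of the 6 libraries (colour and printed value; P phlebotomy, C control). Right, Pearson's r between each pair of genes over the 6 libraries, in which Nfatc1 and Itgb3 stand against most of the others.

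Some 5′ regions of the genes that varied together are shown, with matches to the letters of factors that act in osteoclasts, such as NFATc1, PU.1 and MITF. Whether these factors act in the stretches shown was not tested. RefSeq's table (GRCm38.p6) held start sites for 4 of the 10 members, namely Acp5 (3 starts), Ctsk (1), Calcr (2) and Oscar (1). The 250 bases before the start are given 5′ to 3′ on the strand of the gene for Ctsk (chr3:95498960-95499209, plus strand), for the most 3′ of the Acp5 starts (chr9:22130599-22130848, minus strand) and for Oscar (chr7:3616158-3616407, minus strand). Capitals mark every match, on either strand, to the letters searched, which were GGAAA for the factor NFAT, GAGGAA for the factor PU.1, CATGTG for the factor MITF, TGANTCA for the factor AP-1 and TATAAA for the TATA box.
Ctsk: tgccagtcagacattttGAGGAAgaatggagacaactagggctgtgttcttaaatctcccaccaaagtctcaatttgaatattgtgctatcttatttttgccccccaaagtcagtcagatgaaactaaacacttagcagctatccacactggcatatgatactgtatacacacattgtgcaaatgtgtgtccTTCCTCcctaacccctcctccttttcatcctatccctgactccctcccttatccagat
Acp5: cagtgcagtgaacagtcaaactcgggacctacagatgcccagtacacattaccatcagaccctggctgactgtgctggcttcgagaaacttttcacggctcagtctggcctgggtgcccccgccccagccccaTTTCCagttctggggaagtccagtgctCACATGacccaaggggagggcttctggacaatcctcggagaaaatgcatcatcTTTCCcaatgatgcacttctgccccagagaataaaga
Oscar: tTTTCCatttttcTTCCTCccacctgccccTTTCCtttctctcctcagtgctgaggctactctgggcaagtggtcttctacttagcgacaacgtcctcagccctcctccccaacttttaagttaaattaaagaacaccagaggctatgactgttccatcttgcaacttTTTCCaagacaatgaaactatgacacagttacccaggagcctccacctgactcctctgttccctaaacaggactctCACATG
The Ctsk stretch held 2 PU.1 matches and no NFAT match. The Acp5 stretch held 2 NFAT matches and 1 MITF match, and the Oscar stretch 3 NFAT matches, 1 PU.1 match and 1 MITF match. A GAGGAA followed by A also contains GGAAA, but no such overlap occurred in these stretches. Among all 32851 promoter windows of this length in the table, 55.6% held the NFAT letters, 23.3% the PU.1 letters, 12.3% the MITF letters, 6.75% the AP-1 letters and 12.4% the TATA letters. Of the 7 windows of the members, 5 held NFAT, 2 PU.1, 2 MITF and 0 AP-1 or TATA letters. A match describes letters and does not show binding.

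Genes of the wider osteoclast pathway were read from the same fit, in lists ordered by role. No gene of these lists passed over all libraries in edgeR. Of all genes tested, 9.42% were lower and 7.01% higher at an unadjusted p under 0.05 in edgeR. Without phlebotomy 2 edgeR called 2.99% of all genes lower and 1.75% higher. DESeq2 called 1.09% lower. Phlebotomy lay below control without overlap in 14.5% of all genes tested. Of the ligands, Tnfsf11 (RANKL) was at 112, 111 and 138 CPM in phlebotomy 1, 2 and 4 and 126, 122 and 128 CPM in control 1, 2 and 4 (log2 fold change 0.03). Tnfrsf11b, the decoy osteoprotegerin that binds RANKL, was at 417, 676 and 766 CPM in phlebotomy 1, 2 and 4 and 1490, 1251 and 594 CPM in control 1, 2 and 4 (log2 fold change -0.76, edgeR adjusted p 0.266). Control 4 lay among the phlebotomy libraries for Tnfrsf11b. Csf1 (M-CSF) was at 142, 188 and 166 CPM in phlebotomy 1, 2 and 4 and 291, 256 and 257 CPM in control 1, 2 and 4, without overlap (log2 fold change -0.62, edgeR adjusted p 0.160, and 0.0489 without phlebotomy 2). DESeq2 called Csf1 lower over all 6 libraries (adjusted p 0.0368). Il34, another ligand of the M-CSF receptor, averaged 1.81 ± 0.858 CPM after phlebotomy and 2.95 ± 1.06 CPM in control (SD, n = 3 each).

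The receptors of these ligands had log2 fold changes close to 0. Csf1r, the M-CSF receptor, was at 96.5, 94.1 and 126 CPM in phlebotomy 1, 2 and 4 and 97.5, 95.2 and 144 CPM in control 1, 2 and 4 (log2 fold change 0.0033). Tnfrsf11a (RANK) was at 16.6, 8.69 and 21.2 CPM in phlebotomy 1, 2 and 4 and 13.2, 16.1 and 21.6 CPM in control 1, 2 and 4 (log2 fold change -0.03). Tnfrsf11a was lowest in phlebotomy 2, where Ctsk and Atp6v0d2 were lowest too. Of the 17 receptor and signalling genes tested, 3 were lower and 0 higher at an unadjusted p under 0.05, namely Itgav, the adaptor Gab2 (-0.39) and the kinase Src (-0.53). At that level 9.42% of all genes were lower and 7.01% higher. Tyrobp, an adaptor of costimulatory receptors, had 0.35. The median of that list was -0.03, and without phlebotomy 2 none of its genes passed in edgeR.

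Of the 13 transcription factors that promote osteoclast formation 10 lay below 0, at a median of -0.38 on the log2 scale. At an unadjusted p under 0.05, 5 were lower and 0 higher, against 9.42% and 7.01% of all genes. Without phlebotomy 2 edgeR called 4 lower, namely Fos, Rela, Nfkb2 and Fosl2, where it called 2.99% of all genes lower. Fosl2, a relative of Fos, was named after its values were seen. Fos, an AP-1 subunit that acts before NFATc1, was at 385, 628 and 420 CPM in phlebotomy 1, 2 and 4 and 759, 639 and 1066 CPM in control 1, 2 and 4 (log2 fold change -0.71, edgeR adjusted p 0.196). Fos did not overlap between groups, with phlebotomy below control, as for 14.5% of all genes tested. Rela and Nfkb2, both subunits of NF-kappaB, had log2 fold changes of -0.61 and -0.55 and Junb of -0.50. Those factors act in many cell types. Factors that restrain osteoclasts had a median of -0.27, with Id3 (-0.45) lower at an unadjusted p under 0.05, Bcl6 at -0.28 and Zeb1 at -0.27, and none of these 3 passed without phlebotomy 2.

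Genes of acid secretion and the ruffled border, the membrane that faces the bone, had a median of 0.18. At an unadjusted p under 0.05, 4 of the 18 were higher and 2 lower, against 7.01% and 9.42% of all genes. Car2, the carbonic anhydrase that supplies protons and is also abundant in red cell precursors, was at 975, 923 and 1102 CPM in phlebotomy 1, 2 and 4 and 415, 762 and 902 CPM in control 1, 2 and 4 (log2 fold change 0.62, edgeR adjusted p 0.249). Ostm1, a partner of the osteoclast chloride channel, had 0.39, while the anion exchanger Slc4a2 had -0.40 and Plekhm1, a vesicle traffic protein, -0.52. The other pump subunits of the list lay between -0.19 and 0.33 (Atp6ap1 and Atp6v1c1, named as the ends of the range), and none passed. Without phlebotomy 2, edgeR called Slc9b2 (1.28) and Snx10 (0.84) higher and Plekhm1 (-0.77) lower, against 1.75% and 2.99% of all genes. Slc9b2, a sodium-proton exchanger of osteoclasts, and Snx10, a vesicle protein, were named after their values were seen. Slc9b2 was at 65.0, 23.8 and 73.5 CPM in phlebotomy 1, 2 and 4 and 24.4, 30.0 and 36.5 CPM in control 1, 2 and 4, so phlebotomy 2 was the lowest library, as for Ctsk and Atp6v0d2.

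Genes of fusion, podosomes and adhesion had a median of -0.31. At an unadjusted p under 0.05, 4 of 14 were lower and 0 higher, against 9.42% and 7.01% of all genes. The 4 were Ptk2b (-0.60), a kinase of the attachment ring, Gsn (-0.57), an actin-severing protein, the adaptor Cbl (-0.45) and Pxn (-0.41). Ptk2b and Gsn were called lower by edgeR without phlebotomy 2, as were 2.99% of all genes. Other proteases and their inhibitors had a median of -0.002, with Mmp14 (-0.64), a membrane-bound collagenase, and the inhibitor Timp1 (-0.52) lower and none higher at an unadjusted p under 0.05. The cathepsins Ctss and Ctsz had 0.41 and 0.28. Removing the trend of fold change with transcript length and GC content moved the medians of the adhesion, promoting and restraining lists to -0.13, -0.23 and -0.16. The median of the ligand list moved from -0.61 to -0.47 in the same fit.

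**Figure D4:**
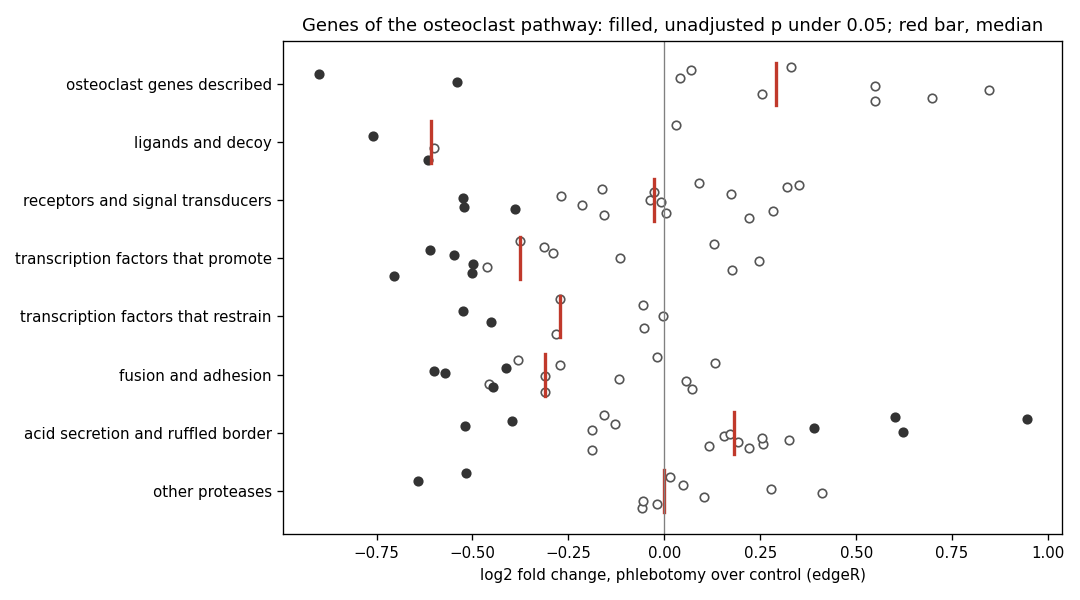
Fold change of each tested gene of the osteoclast pathway on a log2 scale (horizontal axis, phlebotomy over control, edgeR, all 6 libraries), by list. Filled points have an unadjusted p under 0.05, open points do not, and red bars are medians, from -0.61 for the ligands to 0.29 for the 10 osteoclast genes described.

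Markers of other cells in these fractions also differed between libraries. Over all genes tested, 9.42% were lower and 7.01% higher at an unadjusted p under 0.05 in edgeR. Calls of lower covered 2.99% of all genes in edgeR without phlebotomy 2 and 1.09% in DESeq2 over all libraries. The 8 osteocyte markers were all lower at an unadjusted p under 0.05, with summed levels of 13110, 25410 and 23120 CPM in phlebotomy 1, 2 and 4 and 50070, 46600 and 23580 CPM in control 1, 2 and 4. Nfatc1 ran with the osteocyte list, with an r of 0.985 over 6 libraries between log2 levels. Its r was 0.896 with the osteoblast list and -0.812 with the macrophage list, and Itgb3 had 0.870 with the osteocyte list. The r values given for marker lists are a selection from all members and lists. Without phlebotomy 2, edgeR called 3 osteocyte and 6 osteoblast markers lower, and DESeq2 called 2 and 1 of them lower over all libraries. The 8 osteoblast markers were all below 0, with 4 lower at an unadjusted p under 0.05, and had an r of 0.91 with Itgb3 and -0.89 with Ctsk. Their summed levels were 12570, 41700 and 17530 CPM in phlebotomy 1, 2 and 4 and 61120, 41320 and 41470 CPM in control 1, 2 and 4. The part of osteocytes and osteoblasts in the values of Nfatc1 and Itgb3 was not tested.

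Of the 12 macrophage markers 9 were above 0. At an unadjusted p under 0.05, 4 were higher and 1 lower, against 7.01% and 9.42% of all genes. The macrophage list had an r of 0.82 with Ctsk and -0.96 with Itgb3. Adgre1, a macrophage surface receptor, was at 164, 46.9 and 87.9 CPM in phlebotomy 1, 2 and 4 and 44.1, 54.8 and 45.3 CPM in control 1, 2 and 4, again high in phlebotomy 1 and 4 alone (edgeR adjusted p 0.253, and 0.0145 without phlebotomy 2). The summed macrophage level was 2162 to 2443 CPM after phlebotomy and 2121 to 2440 CPM in control. The 12 neutrophil markers summed to 25450 to 41350 CPM after phlebotomy and 20660 to 49390 CPM in control, with 8 above 0, 2 of them at an unadjusted p under 0.05, and an r of 0.685 with Mmp9. Elane, a neutrophil granule protease, was at 573 to 700 CPM after phlebotomy and 365 to 593 CPM in control. Both Mmp9 and the neutrophil markers were lowest in control 1 and highest in control 4, and so were the erythroid markers. The 8 megakaryocyte markers, 7 of them tested, summed to 648 to 1089 CPM after phlebotomy and 608 to 1352 CPM in control. Their r was 0.525 with Itgb3 and 0.529 with Mmp9. Pf4, a platelet chemokine, was at 237 to 416 CPM after phlebotomy and 220 to 464 CPM in control. Endothelial markers, 7 of 8 below 0 and 1 lower at an unadjusted p under 0.05, summed to 432 to 566 CPM after phlebotomy and 485 to 574 CPM in control, with an r of 0.90 with Itgb3. Cdh5, an endothelial cadherin, was at 24.2 to 42.7 CPM after phlebotomy and 40.7 to 51.4 CPM in control. Of the 8 erythroid markers 5 were above 0, with 2 higher and 0 lower at an unadjusted p under 0.05. Erythroid markers had an r of 0.716 with Mmp9 and summed to 17760 to 27910 CPM after phlebotomy and 13420 to 29800 CPM in control. Of the 7 B cell markers found 6 were below 0, with 3 lower and 0 higher at an unadjusted p under 0.05. B cell markers had an r of 0.918 with Itgb3 and summed to 117 to 186 CPM after phlebotomy and 175 to 238 CPM in control. Without phlebotomy 2, edgeR called the neutrophil marker Prtn3 higher (adjusted p 0.0181) and the endothelial marker Flt4 (adjusted p 0.0333) and the B cell marker Cd22 (adjusted p 0.0283) lower. DESeq2 called Prtn3 and Cd22 over all libraries in the same directions (adjusted p 0.00251 and 0.0436). Each of these fits called 2 B cell markers lower, of which Cd22 is the one named. Over all genes, edgeR without phlebotomy 2 called 1.75% higher and 2.99% lower, and DESeq2 0.414% and 1.09%. Prtn3, Flt4 and Cd22 were named after their values were seen. The part of each of these cell types in the osteoclast values was not tested.

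**Figure D5:**
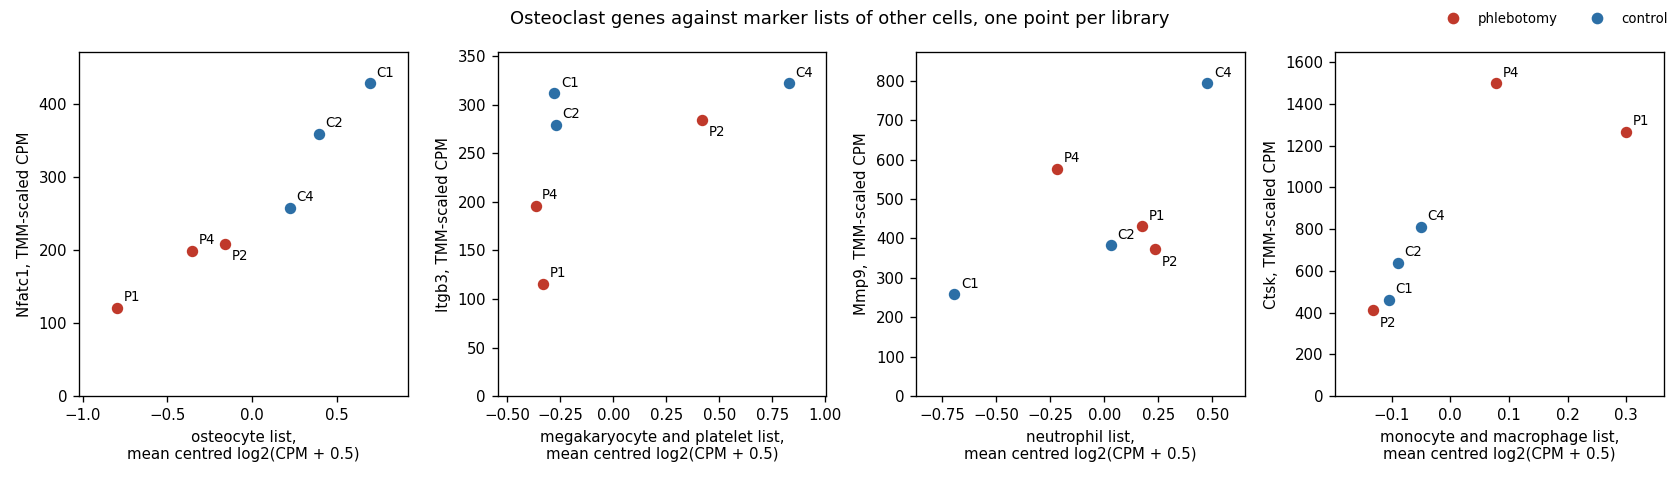
Level of 4 osteoclast genes in TMM-scaled CPM (vertical axes, starting at 0) against the mean centred log2(CPM + 0.5) of the osteocyte, megakaryocyte, neutrophil or macrophage list (horizontal axes), 1 point per library (P phlebotomy, C control). Nfatc1 and the osteocyte list put the libraries in the same order, and Ctsk is high in phlebotomy 1 and 4, the libraries with the highest macrophage list.

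Transcript length and GC content also went with the fold changes. Over 18822 genes, which are not independent replicates, Spearman's rho of log2 fold change was -0.227 with exon length and -0.23 with GC content. Nfatc1 and Itgb3 have the longest exons of the 10, at 7469 and 5901 bases, against 1512 for Ctsk. Both trends were removed together, so the part of each cannot be told apart. With the length and GC trend removed, the log2 fold change was -0.65 for Nfatc1, -0.39 for Itgb3, 0.71 for Ctsk and 0.48 for Atp6v0d2, and none passed (edgeR adjusted p 0.254, 0.415, 0.483 and 0.699).

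Among 10136 protein-coding genes averaging at least 5 CPM outside the lists, the 8 whose log2 levels were most like the mean of the 10 members were Glb1 (r 0.99), Pkhd1l1 (0.98), Arsb (0.98), Slc37a2 (0.98), Hsd17b4 (0.97), Prc1 (0.97), Fastkd3 (0.96) and Umad1 (0.96). Glb1 was at 38.3, 27.3 and 50.1 CPM in phlebotomy 1, 2 and 4 and 26.9, 32.5 and 46.0 CPM in control 1, 2 and 4. Like the mean of the members it was highest in phlebotomy 4 and control 4 and lowest in control 1 and phlebotomy 2. None of the 8 passed the test (edgeR adjusted p from 0.661 to 0.840). Oscar had the highest r with the mean of the other members (0.99) and Nfatc1 the lowest (-0.42).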

How the data were processed

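RNA was sequenced in 6 femur libraries, 3 per group, as 126 bp paired reads on a HiSeq1500 after Nextera XT preparation, per the labels' protocols; that kit does not mark strand. The submitters' processing notes list STAR 2.7.3a and 2.5.2a, DESeq2, edgeR and limma with builds GRCm38.p3 and mm10; the role of each, the counting program and its strand setting were not given in the sources used here. The authors deposited raw counts per gene, a copy of these counts filtered to 28533 rows, and a signal table that, per the file's name, holds CPM scaled with TMM, and whose columns are, as checked, proportional to those filtered counts. Levels here are those deposited CPM values. Rows for transgene or vector sequences (19 of 55440, with 0.00278% to 0.0285% of counts) stayed out of library sizes and tests.

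Columns with initial P were read as phlebotomy and the remaining ones, with initial N, as control. Column numbers are 1, 2 and 4 while titles run to 3, so columns were tied to groups only. Separate animals are not stated, and a p-value then reflects only how far these libraries spread, which may be technical. No pair of libraries in a group agreed within sampling noise (mean chi-square per gene at least 30.4).

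Counts were filtered with filterByExpr (minimum count 10), TMM-scaled and tested with edgeR 4.0.16 (quasi-likelihood, robust, no covariates) in R 4.3.3, after the tests were run on simulated data; SE were derived from the F statistic. Alternatives used DESeq2 1.42.0, limma 3.58.1, other scalings and filters, a replicate block, each library left out and, added after seeing the data, removal of a length and GC trend. Exon lengths and coordinates came from GENCODE M21 (GRCm38). Of the exons of the 10 members, 137 bases of Acp5 overlap an antisense gene, which had 107 counts in all against 46750 for Acp5. The members, the lists and the rule for named genes were chosen with earlier results of these data known. The rule names the 10 members, their ligands and receptors, 4 genes of each pathway list by smallest p, 1 marker each of other cells and the 8 most alike genes. Some genes of the lists are not reported here. The 3-count limit covers counting error only, whereas SD and SE hold the spread between libraries. Figures were drawn with matplotlib 3.10.9.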

Additional observations from a re-analysis of the deposited data

Results flagged for a closer look

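Rows of the count table that name transgene or vector sequences took 0.0285% of all counts in phlebotomy 2, above the highest control (0.00361%) and above phlebotomy 1 and 4 (0.00278% and 0.00297%). The rows enter no comparison, and 2 of them had counts in phlebotomy 2 alone. Phlebotomy 2 is also the library whose omission brought the calls of Ctsk, Atp6v0d2, Nfatc1 and Itgb3; whether the 2 facts are connected was not tested.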

How the results depend on the processing

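Acp5, Ctsk, Atp6v0d2 and Dcstamp kept a positive and Nfatc1 and Itgb3 a negative log2 fold change under all 19 alternatives. Testing every gene turned Mmp9 to -0.033, and testing the authors' filtered set turned it to -0.056. Ocstamp turned to -0.0030 and -0.032 under the same settings and to -0.042 and -0.037 in limma-trend with pseudocounts of 0.5 and 1. With a library left out, Mmp9 ran from -0.27 to 0.58, Ocstamp from -0.38 to 0.35, Oscar from -0.25 to 0.67 and Calcr from -0.059 to 0.43. Members called numbered 0 to 2 higher and 0 to 2 lower with a library left out, 1 lower in DESeq2 and 1 lower without a filter (Nfatc1 in both). Members at an unadjusted p under 0.05 numbered 1 to 6 with a library left out (1529 to 5389 of all genes), 1 under upper-quartile scaling, scaling by library size alone or the trend removed (3090, 3286 and 2675 of 18838 genes), and 4 with no filter (5223 of 46504 genes). With no filter 2 of the 4 were higher, Ctsk and Acp5 (edgeR unadjusted p 0.019 and 0.0218). Without the robust option 3 members were below 0.05 (3037 of 18838 genes), and over protein-coding genes 2 (2507 of 14110 genes). Ctsk was the 1 higher member in each (edgeR unadjusted p 0.0462 and 0.0466). That no member was higher at this level in the main fit thus depends on the processing. The median of the members ran from -0.12 to 0.63 with a library left out. Calls over all genes were 3 in edgeR, 577 with no filter, 20 over the authors' genes, 284 in DESeq2, 0 in limma-voom (2987 at an unadjusted p under 0.05), 1 over protein-coding genes, and 0 (without phlebotomy 1, 1529 at an unadjusted p under 0.05) to 963 (without phlebotomy 2) with a library left out. The cause was not tested. Scaling by library size alone moved the median of all genes by 0.14. Same-numbered columns did not deviate together (correlations -0.110, -0.108 and -0.062), and with the column number as a replicate block 3 genes and 0 members were called, with 2 members at an unadjusted p under 0.05. Depth limits Calcr, Ocstamp and Oscar most, with 26 to 259 counts a library.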

Other observations

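Within a library the balance of the resorption enzymes differed. Ctsk counts were 2.94, 1.11 and 2.60 times those of Mmp9 in phlebotomy 1, 2 and 4 and 1.79, 1.67 and 1.02 times in control 1, 2 and 4, so that phlebotomy 2 and control 4 had the lowest ratios. The log2 ratio averaged 1.03 ± 0.77 after phlebotomy and 0.54 ± 0.44 in control (SD, n = 3 each), and the groups overlapped. The count ratio of Ctsk to Acp5 stayed between 1.31 and 2.17 in all 6 libraries. Tnfsf11 counts were 0.268, 0.164 and 0.180 of those of Tnfrsf11b in phlebotomy 1, 2 and 4 and 0.0849, 0.0977 and 0.215 in control 1, 2 and 4. Control 4 had the highest ratio of the controls, and it was also the control with the most Ctsk, Acp5 and Mmp9. In the phlebotomy group phlebotomy 1 had the highest ratio and the most Acp5, while phlebotomy 4 had the most Ctsk and Mmp9. A tie between this ratio and the resorption enzymes was not tested.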
